A study of Mus musculus with 12 samples.

Results

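The lateral choroid plexus of male mice without Abhd2 was set against that of males with the gene, over all genes of the deposited count table. The comparison uses 6 of the 12 libraries of the study: 3 of hoz males, in which both copies of Abhd2 carry the knockout, and 3 of wt males. The study asks how the choroid plexus transcriptome depends on Abhd2 in each sex. The other 6 libraries, 3 of hoz females and 3 of wt females killed in proestrus, entered the fit for the spread between libraries and a test of whether the genotype difference depends on sex. All were adult mice of a C57BL6 strain, kept on a light cycle of 14 hours. Per the labels' protocols the wt mice were C57Bl/6N from Charles River and the knockout line had a similar background. The sources used here do not say how the knockout allele was made, which exons it removes or whether the wt males were littermates. The plexuses were snap frozen after dissection at around 10 in the morning, and polyadenylated RNA was sequenced in paired reads of 100 bases. They also do not say whether a library holds the tissue of 1 male or of more, so p-values measure the spread between these libraries.

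The choroid plexus is a fold of secretory epithelium around leaky capillaries that hangs in the brain ventricles, makes cerebrospinal fluid and guards the border between blood and fluid. Abhd2 encodes a membrane serine hydrolase of the alpha/beta hydrolase family. In human sperm it is the receptor through which progesterone acts without a nuclear receptor: bound to the hormone, it breaks down 2-arachidonoylglycerol, an endocannabinoid that holds the CatSper calcium channel shut. The same family holds the enzymes Abhd6 and Abhd12, which also cleave that lipid, and Abhd5, a cofactor of fat breakdown.

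Abhd2 (ENSMUSG00000039202) lies on the plus strand of chromosome 7 at chr7:79273201-79365508 in mm10, the build of the deposited table. GENCODE release M21 gives it a protein coding transcript of 11 exons, 9 of them coding, and a shorter processed transcript of 6 exons. Its start region is shown because reads of the gene remained in every hoz male. The sequence is the RefSeq window chr7:79273016-79273315 (GRCm38.p6, plus strand), with the 50 bases after the RefSeq start in capitals. That start lies downstream of the gene start given above, so the last lower case bases fall within that gene span.
Abhd2: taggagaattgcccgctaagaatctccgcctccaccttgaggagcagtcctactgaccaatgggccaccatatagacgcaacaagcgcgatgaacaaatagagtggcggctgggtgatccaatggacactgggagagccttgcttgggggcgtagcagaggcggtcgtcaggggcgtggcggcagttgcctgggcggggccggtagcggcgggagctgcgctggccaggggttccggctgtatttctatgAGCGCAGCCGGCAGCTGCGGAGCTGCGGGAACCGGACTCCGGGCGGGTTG

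Some male libraries stood apart before any genotype comparison. The hoz males held 11842276 to 47903184 reads in genes, and the wt males 18252548 to 30120598. Ttr, the transthyretin gene that marks this epithelium, took 9.90% to 10.1% of the reads in hoz males, against 9.41% to 10.0% in wt males. Xist lay at 0.254 to 0.768 CPM (reads scaled to the library total) in hoz males, at 0.202 to 0.445 CPM in wt males and at 86.6 to 145 CPM in the females. No library was a copy of another: chi-square divided by the number of genes was 7.60 to 10.6 between hoz males and 6.66 to 22.3 between wt males, where sampling noise alone gives about 1. The lowest of these values was between wt male 1 and wt male 2. Such values grow with read depth, which differed between the pairs, so they do not rank how alike the libraries are.

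Wt male 1 and wt male 2 differed together from the other 10 libraries at 7 genes. Of 35275 genes, those of a mean of at least 1 CPM were screened. These 7 were all the genes at which both lay beyond every other library by more than 0.5 on the log2(CPM + 0.5) scale. They were chosen after their values were seen. No other pair of libraries was screened, so how common such gaps are between libraries was not tested. Tmem181b-ps, a transcribed pseudogene on chromosome 17, had 0.390 and 0.471 CPM in these 2 libraries and 12.1 to 16.3 CPM in the other 10. Its neighbour Dynlt1c, a dynein light chain gene, had 0 reads in both and 1.39 to 3.19 CPM in the others. Dynlt1b had 1.45 and 1.28 CPM against 3.76 to 5.93 CPM. The nearby Dynlt1f and Tmem181a showed no such gap. Dynlt1f had 2.95 and 3.03 CPM in the pair and 1.91 to 3.11 CPM elsewhere, while Tmem181a had 9.68 and 8.82 CPM, just under the 9.76 to 12.8 CPM elsewhere. Cpd, a carboxypeptidase gene, had 54.0 and 25.04 CPM in the pair and 81.6 to 97.7 CPM in the others, and Pisd-ps1 had 7.79 and 8.78 CPM against 16.5 to 24.7 CPM. The other 2 genes were higher in the pair: RP23-8J15.4, a pseudogene on chromosome 1, at 43.6 and 38.5 CPM against 10.2 to 19.0 CPM, and the mitochondrial mt-Co3 at 18.6 and 17.4 CPM against 6.34 to 9.48 CPM. Another mitochondrial gene, mt-Co1, had 19611 and 19209 CPM in the pair and 13243 to 18427 CPM in the others, far above mt-Co3. Whether RP23-8J15.4 and mt-Co3 share reads was not tested. What sets the pair of libraries apart was not tested. The choice of these genes places wt male 3 with the hoz males, so its likeness to them here is no separate result.

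**Figure D1:**
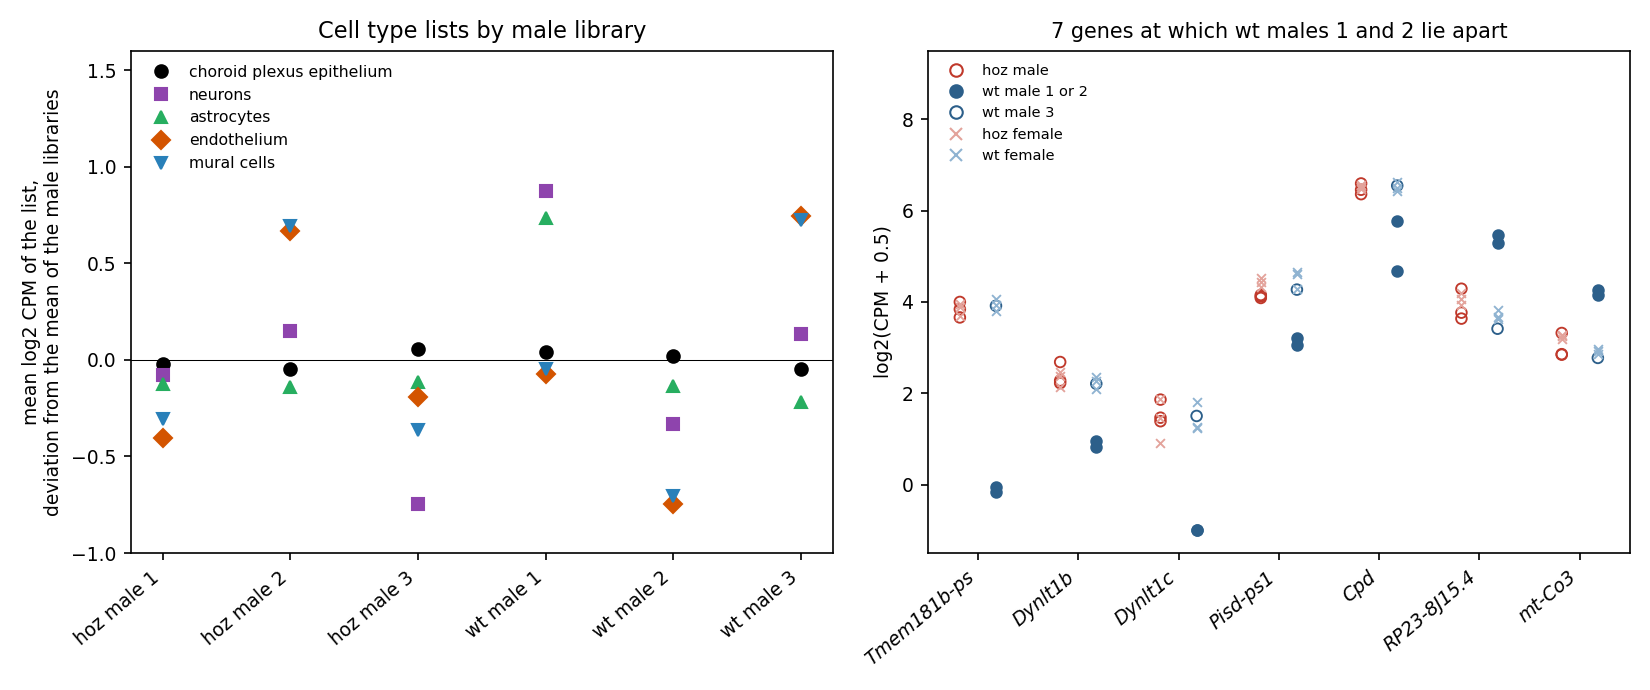
Left: mean log2 CPM of 5 cell type lists in each male library, as the deviation from the mean of the 6 male libraries, hoz males left of wt males; neurons and astrocytes are highest in wt male 1 (0.87 and 0.73), while endothelium and mural cells are high in hoz male 2 and wt male 3. Right: log2(CPM + 0.5) of the 7 genes in all 12 libraries, hoz left of wt for each gene. By the choice of these genes, the filled circles of wt males 1 and 2 lie away from all other points.

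Abhd2 was the gene that separated the groups. It lay at 48.7, 54.8 and 54.6 CPM in the hoz males, against 1987, 1862 and 2332 CPM in the wt males. No hoz library came near a wt library. The means were 52.7 ± 3.47 CPM in hoz males and 2060.3 ± 244 CPM in wt males (SD, n = 3 each), so 2.56% of the wt level remained. Abhd2 fell by 5.28 on the log2 scale (95% interval -5.49 to -5.07; Benjamini-Hochberg adjusted p = 1.36e-15, edgeR's quasi-likelihood test). The remaining signal was 575, 2460 and 2558 reads in the hoz males, beside 35705, 55317 and 59947 reads in the wt males. A count per gene does not show which exons these reads come from.

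Per length of gene, Abhd2 was the most abundant of the 20 Abhd genes in wt males and the 12th in hoz males. Its FPKM (fragments scaled to gene length and library size, as deposited by the authors) was 7.66 ± 0.55 in hoz males and 301 ± 44.0 in wt males (SD, n = 3 each). Next in the wt males came Abhd8, at 73.3 ± 2.49 FPKM in hoz males and 73.9 ± 3.18 FPKM in wt males, and Abhd3, a phospholipase, at 51.9 ± 0.90 FPKM in hoz males and 50.2 ± 2.39 FPKM in wt males. Both differences were below the SD in wt males, while that of Abhd3 was above its SD in hoz males. Of the endocannabinoid hydrolases, Abhd12 ranked 4th and Abhd6 8th in wt males. Abhd12 had 48.5 ± 4.31 FPKM in hoz males and 47.7 ± 3.13 FPKM in wt males, and Abhd6 had 28.2 ± 0.98 FPKM in hoz males and 27.9 ± 0.029 FPKM in wt males. Abhd5 had 5.73 ± 0.38 FPKM in hoz males and 5.56 ± 0.15 FPKM in wt males. These genes were named for their rank or function after their values were seen.

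Of the 24 members of the abhydrolase list that were tested, Abhd2 alone was called, and 11 had a log2 fold change above 0. Apart from it the smallest p belonged to Ndrg4, a hydrolase-fold gene of neurons and heart, at 22.2, 21.5 and 22.9 CPM in hoz males and 33.2, 23.2 and 23.2 CPM in wt males. Its difference (log2 fold change -0.25, SE 0.115, adjusted p = 1.0 by edgeR) rested on wt male 1, and was -0.06 without it. Abhd17b, which removes palmitate from proteins, had a log2 fold change of 0.16 (SE 0.0887, adjusted p = 1.0 by edgeR), and 0.10 without wt male 3 or 0.26 without wt male 2.

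Across the transcriptome no other gene passed the test. Among 13857 genes tested, edgeR called 1 lower in hoz males (0.00722%) and 0 higher (0%) at an adjusted p under 0.05. At an unadjusted p under 0.05, 159 genes were lower (1.15%) and 142 higher (1.02%). The hoz libraries all lay below the wt libraries at 459 genes (3.31%) and all above them at 462 (3.33%), and 51.3% of log2 fold changes were above 0. DESeq2 called 4 genes, all lower in hoz males: Abhd2, Ackr4, Pcsk2 and Scd1. Limma voom called Abhd2 alone, and voom with sample weights called Abhd2, Ackr4 and, as higher, Tmem181b-ps. Without wt male 3 edgeR called 8 genes, namely Abhd2, Eno2 and 6 of the 7 genes that set wt males 1 and 2 apart (all but Cpd).

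The design bounds how large a missed difference could be. The 95% interval of the log2 fold change reached to either side of the estimate by a median of 0.22 over all tested genes and of 0.18 over the 10202 genes with at least 5 CPM in the higher group. For 10169 of all 13857 tested genes (73.4%) the interval lay within 0.5 of 0 in either direction, which is a 1.41-fold difference. Among the 10202 genes with at least 5 CPM it did so for 9720 (95.3%). The middle 90% of their log2 fold changes ran from -0.13 to 0.14, and 7 lay beyond 1 in either direction. Abhd2 and Ackr4 were among those 7, as were 2 of the genes that set wt males 1 and 2 apart (RP23-8J15.4 and Tmem181b-ps) and Camk2a and Gh, genes of neurons and pituitary.

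**Figure D2:**
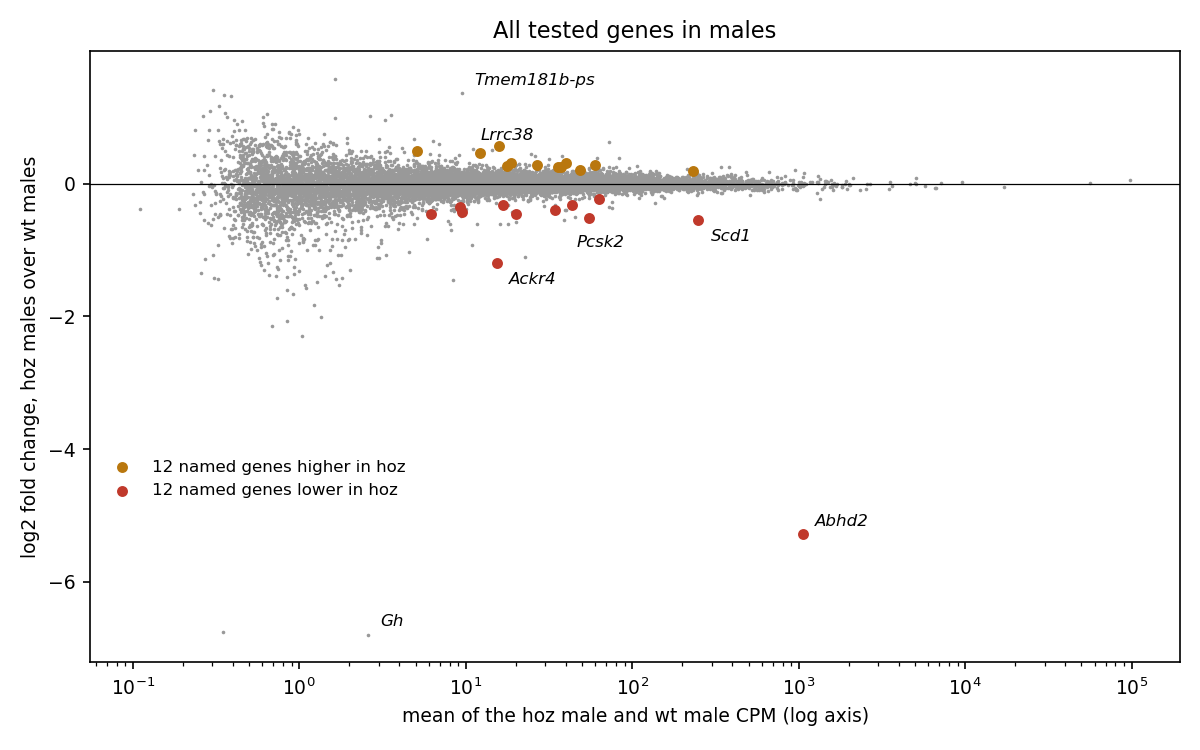
Log2 fold change of each tested gene, hoz males over wt males, against the mean of the hoz and wt male CPM on a log axis. Abhd2 stands alone at -5.28 among abundant genes, the 24 named genes lie at the edge of the cloud, and the 2 points under it, Gh and Prl, had at most 0.0669 CPM in any hoz male, so their fitted values depend on the added prior count.

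Genes that were lower in all 3 hoz males than in all 3 wt males without passing the test were led by Pcsk2 and Scd1. Pcsk2, a convertase that cuts prohormones (chr2:143546156-143816285), had 46.1, 42.8 and 47.5 CPM in hoz males and 68.8, 59.8 and 67.2 CPM in wt males. The log2 fold change of Pcsk2 was -0.52 (95% interval -0.71 to -0.33, adjusted p = 0.204 by edgeR). Scd1, the desaturase that makes oleate from stearate (chr19:44394451-44407709), had 183, 204 and 220 CPM in hoz males and 261, 265 and 365 CPM in wt males. Its log2 fold change was -0.55 (95% interval -0.79 to -0.32, adjusted p = 0.910 by edgeR), with wt male 3 the highest. Without wt males 1 and 2, an alternative added with the data known, Scd1 was called at -0.85 (adjusted p = 8.94e-05), a comparison of 3 hoz males with wt male 3 alone. Without wt male 3 its log2 fold change was -0.37.

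Ackr4, a receptor that removes chemokines such as Ccl19 and Ccl21 (chr9:104084157-104126933), showed the widest gap among these genes after Abhd2. It had 12.5, 7.06 and 9.21 CPM in hoz males and 21.8, 22.9 and 18.6 CPM in wt males. The log2 fold change of Ackr4 was -1.20 (SE 0.249, adjusted p = 1.0 by edgeR). Ackr4 overlaps Acad11 on the opposite strand, and the sources used here do not say if counting used the strand. Of the 24 genes named by size of p, 9 overlap a gene on the opposite strand.

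The other 8 of the 12 lower genes showed smaller gaps. Col17a1, a transmembrane collagen of epithelial anchoring, had 35.8, 38.5 and 41.4 CPM in hoz males and 49.6, 47.7 and 49.1 CPM in wt males. Sorl1, a sorting receptor that binds the amyloid precursor and lipoprotein particles, had 16.2, 15.3978 and 18.9 CPM in hoz males and 23.5, 22.7 and 23.3 CPM in wt males. In both genes the wt males lay close together. E2f1, a cell cycle transcription factor, had 13.8, 15.2 and 15.5 CPM in hoz males and 19.6, 18.4 and 18.1 CPM in wt males. Vtn, the plasma and pericyte protein vitronectin, had 51.0, 61.7 and 60.9 CPM in hoz males and 73.2, 67.3 and 65.4 CPM in wt males. The gap between the groups was narrow for Vtn. Tmod2 and Celf4, an actin capping protein and an RNA binding protein of neurons, and Btbd11 and Phlda3, a p53 target, had log2 fold changes of -0.43, -0.47, -0.36 and -0.39. Without wt males 1 and 2 the log2 fold change of Tmod2 was -0.17, that of Celf4 -0.27 and that of Phlda3 -0.12. All 8 had an adjusted p of 1.0 by edgeR.

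**Figure D3:**
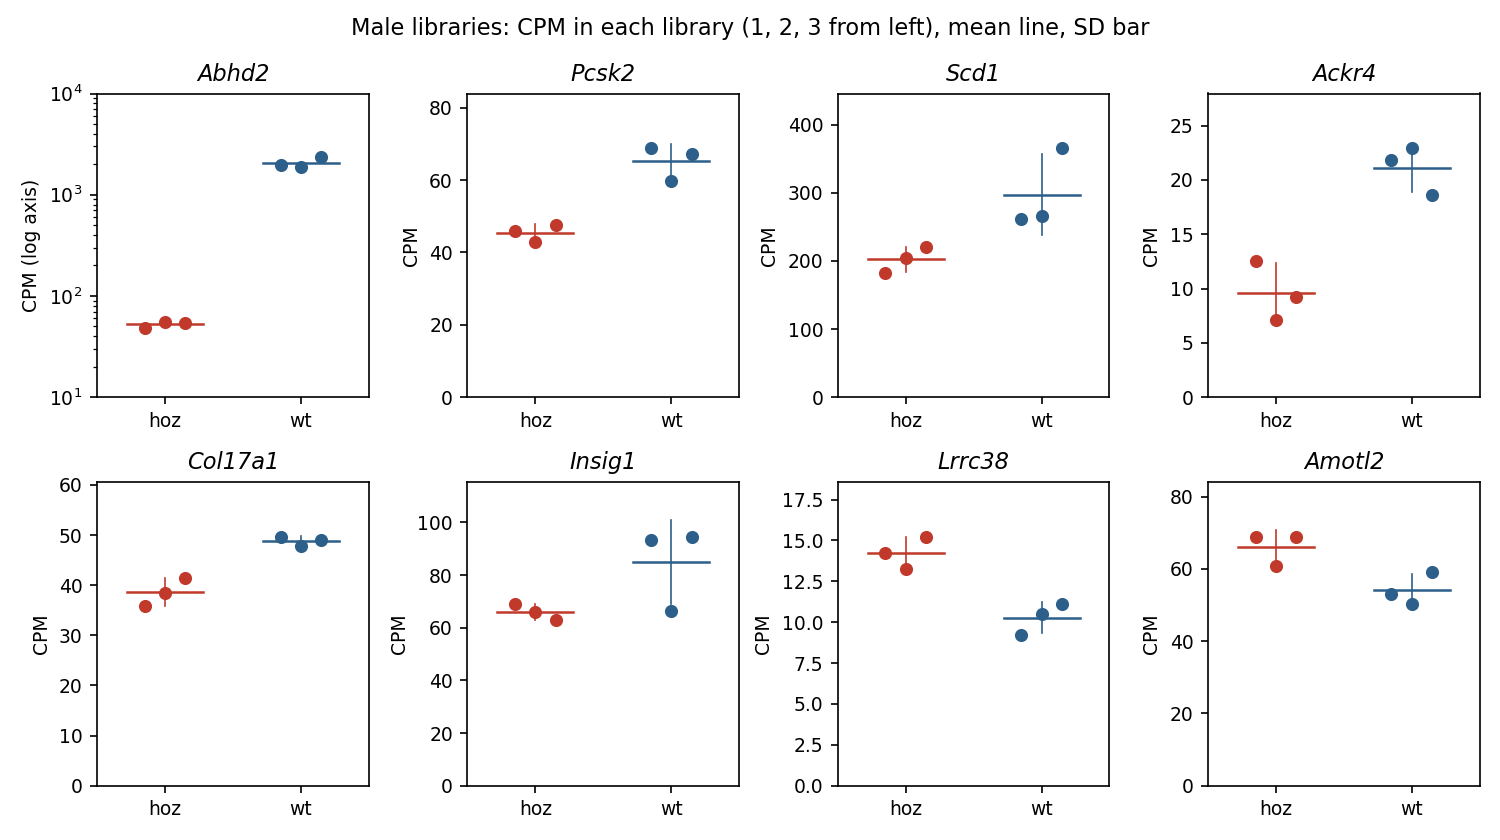
CPM of 8 genes in each male library, hoz left of wt, with the group mean as a line and the SD over 3 libraries as a bar; the Abhd2 axis is logarithmic and the others start at 0. Abhd2 shows no approach between groups, while for Insig1 wt male 2 (66.4 CPM) lies among the hoz males.

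The 12 genes named as higher in hoz males had log2 fold changes of 0.18 to 0.56, and each had an adjusted p of 1.0 by edgeR. Lrrc38, an auxiliary subunit of BK potassium channels, had 14.2, 13.3 and 15.2 CPM in hoz males and 9.24, 10.5 and 11.1 CPM in wt males. Amotl2, a junction protein of the Hippo pathway, had 68.9, 60.8 and 68.7 CPM in hoz males and 53.1, 50.2 and 59.1 CPM in wt males. The 12 were named from genes whose hoz males all lay above the wt males, 3.33% of all tested genes. That order was thus fixed by the choice, and in Lrrc38 and Amotl2 the margin was under 3 CPM. Bmp2, a secreted growth factor, had 5.59, 5.99 and 6.12 CPM in hoz males and 4.17, 4.37 and 4.16 CPM in wt males. Gadd45g, a stress response gene, had 49.0, 42.5 and 42.4 CPM in hoz males and 32.4, 34.9 and 40.2 CPM in wt males. Wt male 3 came closest to the hoz males for Gadd45g. P4ha2, a collagen prolyl hydroxylase, had 18.5, 20.6 and 23.2 CPM in hoz males and 17.5, 17.2 and 16.0 CPM in wt males.

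The noncoding Kcnq1ot1, the antisense RNA of an imprinted domain, had 13.7, 22.7 and 19.8 CPM in hoz males and 12.02, 13.4 and 13.6 CPM in wt males. Its span lies within Kcnq1 on the opposite strand, and hoz male 1 lay next to the wt males. Rbm47, an RNA binding cofactor of mRNA editing, was the most abundant of the 12 at 244, 232 and 260 CPM in hoz males, against 218, 206 and 225 CPM in wt males. The last 5, Prex2 (a Rac exchange factor), Zfp292 (a zinc finger protein), Slc24a5 (a potassium dependent sodium and calcium exchanger), Rrp1b (a nucleolar protein) and Rab10os (antisense to Rab10), had log2 fold changes of 0.20 to 0.27.

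Genes of fatty acid synthesis and desaturation lay slightly lower in hoz males as a list. Of 31 tested members 0 were called, 5 had a log2 fold change above 0 and the median was -0.07, beside a median of 0.00 and 51.3% above 0 over all tested genes. At an unadjusted p under 0.05, 6 members were lower and 0 higher, and 5 had hoz males all below wt males. Over all tested genes 1.15% were lower and 1.02% higher at that p by edgeR, and 3.31% had hoz males all below wt males. The mean log2 CPM of the list, as a deviation from the mean of the male libraries, was -0.098, -0.012 and -0.051 in hoz males and 0.070, -0.047 and 0.14 in wt males. Wt male 2 lay below hoz male 2, so the groups overlapped. Besides Scd1 the members whose groups stood apart include Fads2, the desaturase that begins the making of long polyunsaturated fatty acids, at 209, 236 and 245 CPM in hoz males and 268, 251 and 260 CPM in wt males. Acsl3, which activates fatty acids for lipid droplets, had 20.8, 21.4 and 22.5 CPM in hoz males and 27.1, 24.8 and 26.03 CPM in wt males. The groups did not overlap in either gene. Scd2, the brain form of the desaturase, had 1059, 1359 and 1300.0 CPM in hoz males and 1352, 1388 and 1651 CPM in wt males, with overlap. Scd1 and Scd2 are close relatives and can share reads.

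Cholesterol synthesis genes also lay slightly lower in hoz males. All 24 tested members had a log2 fold change below 0, from -0.37 to -0.02, with a median of -0.10, and 0 were called. Over all tested genes 51.3% were above 0. At an unadjusted p under 0.05 by edgeR, 2 members were lower and 0 higher, beside 1.15% of all tested genes lower. Hoz males lay all below wt males at 1 member, and at 3.31% of all tested genes. Insig1, which holds the sterol sensor in the endoplasmic reticulum, had 68.9, 65.8 and 62.8 CPM in hoz males and 93.5, 66.4 and 94.5 CPM in wt males. The test gave -0.37 (SE 0.107, adjusted p = 1.0 by edgeR). Without wt male 2, Insig1 was called at -0.52 (adjusted p = 0.00883), and without wt males 1 and 2 at -0.53 (adjusted p = 0.0379). Without wt male 3 it was not called, at -0.27. For Insig1 wt male 2 lay within the hoz range. The mean log2 CPM of the list, as a deviation from the mean of the male libraries, was -0.091, -0.021 and -0.062 in hoz males and 0.086, -0.038 and 0.13 in wt males. Wt male 2 thus lay between hoz male 2 and hoz male 3, and the groups overlapped. Dhcr7 and Fdft1, enzymes of the pathway, had log2 fold changes of -0.19 and -0.10. That of Dhcr7 was -0.10 without hoz male 1 and -0.29 without wt male 2.

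Many genes of both lists are known targets of the sterol response factors, the SREBPs, whose classic binding element reads TCACNCCAC. This motif was searched on both strands of RefSeq windows from 250 bases before to 50 after each start (GRCm38.p6). It was present for 388 of 27025 genes (1.44%), for 1 of 17 cholesterol synthesis genes with a window (5.88%) and for 2 of 27 fatty acid genes (7.41%). Matches are shown for 2 members, with 12 bases on either side and the motif in capitals. Acsl1, of the fatty acid list, also has a match, which is not shown. Whether the motif bears on the levels was not tested. Hmgcs1, the synthase that feeds the sterol pathway, has its match at chr13:119690202-119690234 and Mlxipl, the glucose responsive factor ChREBP, at chr5:135106743-135106775.
Hmgcs1: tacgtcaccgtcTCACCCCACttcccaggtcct
Mlxipl: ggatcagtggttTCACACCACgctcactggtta
Hmgcs1 had 234, 222 and 210 CPM in hoz males and 217, 218 and 240 CPM in wt males, with overlap. Mlxipl lay at a low level, 0.26 ± 0.022 FPKM in hoz males and 0.31 ± 0.065 FPKM in wt males (SD, n = 3 each). Both genes were named for the motif after their values were seen. A match of letters is a description of the window.

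Genes closest to the known chemistry of Abhd2 gave no call. Endocannabinoid metabolism had 0 of 13 tested members called, 6 above 0 and a median of -0.06. Faah, which breaks down anandamide, had 8.97, 9.96 and 8.62 CPM in hoz males and 13.02, 10.6 and 9.88 CPM in wt males, and the groups overlapped. Napepld, which makes that lipid, had 17.7, 16.6 and 15.9 CPM in hoz males and 17.7, 19.2 and 18.1 CPM in wt males. For both the 95% interval included 0. The lipases and glycerolipid breakdown list had 0 of 23 called and a median of -0.03, and its member with the smallest p, Lipe (hormone sensitive lipase), had a log2 fold change of -0.15. Cholesterol export and lipoproteins had 0 of 19 called and a median of 0.03. Apoc1, an apolipoprotein of that list, had 8.21, 9.56 and 5.84 CPM in hoz males and 8.96, 10.2 and 13.8 CPM in wt males.

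Steroid receptors and progesterone binding proteins had 0 of 18 called, 10 above 0 and a median of 0.01, and Paqr7, a membrane progestin receptor, had 15.9, 15.7 and 15.9 CPM in hoz males and 19.0, 15.5 and 18.2 CPM in wt males. Steroid metabolism had 0 of 12 called and a median of 0.00. Calcium entry channels had 0 of 23 called and a median of -0.01. In that list Mcoln3, an endolysosomal calcium channel, had 2.29, 2.16 and 2.07 CPM in hoz males and 1.06, 0.774 and 1.44 CPM in wt males, a log2 fold change of 0.99 at a low level (SE 0.292, adjusted p = 1.0 by edgeR). Without wt males 1 and 2 the log2 fold change of Mcoln3 was 0.58. Cacna1h, a low voltage calcium channel, had 6.60, 6.77 and 8.98 CPM in hoz males and 10.7, 9.69 and 8.09 CPM in wt males. Of the sperm channel genes Catsper1 and Catsper4 had 0 reads in all 6 males.

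No gene of the epithelium's own programme passed the test. The choroid plexus epithelium list had 0 of 39 called, 16 above 0 and a median of -0.02, and its summed level was 188314 to 202287 CPM in hoz males and 182053 to 200096 CPM in wt males. Sostdc1, a secreted BMP and Wnt antagonist of this epithelium, had 641, 720 and 751 CPM in hoz males and 627, 614 and 637 CPM in wt males. Car12, a membrane carbonic anhydrase, had 1110.4, 1230.0 and 1318 CPM in hoz males and 1352, 1368 and 1321 CPM in wt males. In each the hoz and wt males stood apart by under 5 CPM, and neither passed the test. Ion and water transport had 0 of 38 called and a median of 0.01, with Fxyd1, the sodium pump regulator phospholemman, at 498, 525 and 519 CPM in hoz males and 493, 440 and 432 CPM in wt males. Barrier transporters had 0 of 29 called and a median of 0.00, with Slc16a8, a lactate carrier, at 101, 105 and 112 CPM in hoz males and 122.9, 120 and 115 CPM in wt males. Tight junctions had 0 of 25 called with a median of 0.00, and motile cilia 0 of 39 with a median of -0.02. In the cilia list Tekt4, a tektin of the axoneme, had a log2 fold change of -0.40 and Hydin, a central pair protein, 0.21, both with an adjusted p of 1.0 by edgeR. Without hoz male 3 that of Hydin was 0.11.

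RNA of other cell types differed in level between these libraries, and in bulk RNA fewer cells of a type and less RNA per cell cannot be told apart. The neurons list had 0 of 30 tested members called, 2 above 0 and a median of -0.41, and its summed level was 434 to 506 CPM in hoz males and 462 to 558 CPM in wt males. Its mean log2 CPM lay highest in wt male 1 (0.87) and lowest in hoz male 3 (-0.75), and no member was at 0 reads in all males. Without wt male 1 the median was -0.04, and without hoz male 3 it was -0.20. Eno2, an enolase of neurons, had 33.6, 36.5 and 33.8 CPM in hoz males and 47.9, 54.2 and 35.8 CPM in wt males. Its log2 fold change was called at -0.55 without wt male 3 and was -0.26 without wt male 2. Gad2, of inhibitory neurons, had 0.169, 0.379 and 0.128 CPM in hoz males and 2.28, 0.404 and 0.739 CPM in wt males.

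Prohormone processing, the list that holds Pcsk2, had 0 of 19 called and a median of -0.40, but -0.06 without wt male 1 and -0.08 without hoz male 3. Among genes with at least 5 CPM in 3 libraries its median was 0.00. Pcsk5, a convertase relative, had 7.11, 7.40 and 7.38 CPM in hoz males and 10.1, 9.42 and 9.26 CPM in wt males. Chga, chromogranin A of secretory granules, had 0.508, 0.468 and 0.235 CPM in hoz males and 1.84, 0.572 and 0.739 CPM in wt males. Cpe, the carboxypeptidase that trims prohormones, had 37.3, 41.6 and 33.8 CPM in hoz males and 70.1, 47.1 and 44.0 CPM in wt males. With the neuron score of each library as a covariate the log2 fold change of Pcsk2 was -0.54 and that of Pcsk5 -0.37. That score was drawn from the same libraries as the differences, so the covariate fit cannot measure how much of them is neuronal RNA. The part of neuronal RNA in these differences was not tested. Gh, the growth hormone gene of the pituitary, had 0, 0.0669 and 0.0213 CPM in hoz males and 12.7, 0.269 and 2.37 CPM in wt males, and Prl had 0 reads in the hoz males and 1.56, 0.101 and 0.428 CPM in wt males.

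The glial lists also rested on single libraries. Astrocytes had 0 of 20 called and a median of -0.28, which was -0.01 without wt male 1. Aldoc, an aldolase of astrocytes, had 34.03, 34.9 and 32.2 CPM in hoz males and 43.8, 36.9 and 38.0 CPM in wt males. Oligodendrocytes had 0 of 16 called and a median of -0.28, which was -0.10 without hoz male 3 and -0.52 without hoz male 1. Mog, a myelin gene, had 0.931, 0.446 and 0.277 CPM in hoz males and 1.17, 0.909 and 0.778 CPM in wt males. Pdgfra, which marks oligodendrocyte precursors and fibroblasts, had 65.0, 73.4 and 71.6 CPM in hoz males and 45.6, 49.4 and 66.1 CPM in wt males. Endothelium had 0 of 24 called and a median of 0.09, with summed levels of 160 to 337 CPM in hoz males and 122 to 352 CPM in wt males. With 1 library left out this median ran from -0.39 without hoz male 2 to 0.63 without wt male 3. Mural cells, fibroblasts, macrophages and antigen presentation had medians of 0.03, 0.05, 0.04 and 0.03 with 0 called. With 1 library left out these medians changed sign, running from -0.47 to 0.52 for mural cells, -0.14 to 0.41 for fibroblasts, -0.12 to 0.20 for macrophages and -0.10 to 0.19 for antigen presentation. No member of the lymphocytes and granulocytes list had enough reads to be tested.

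**Figure D4:**
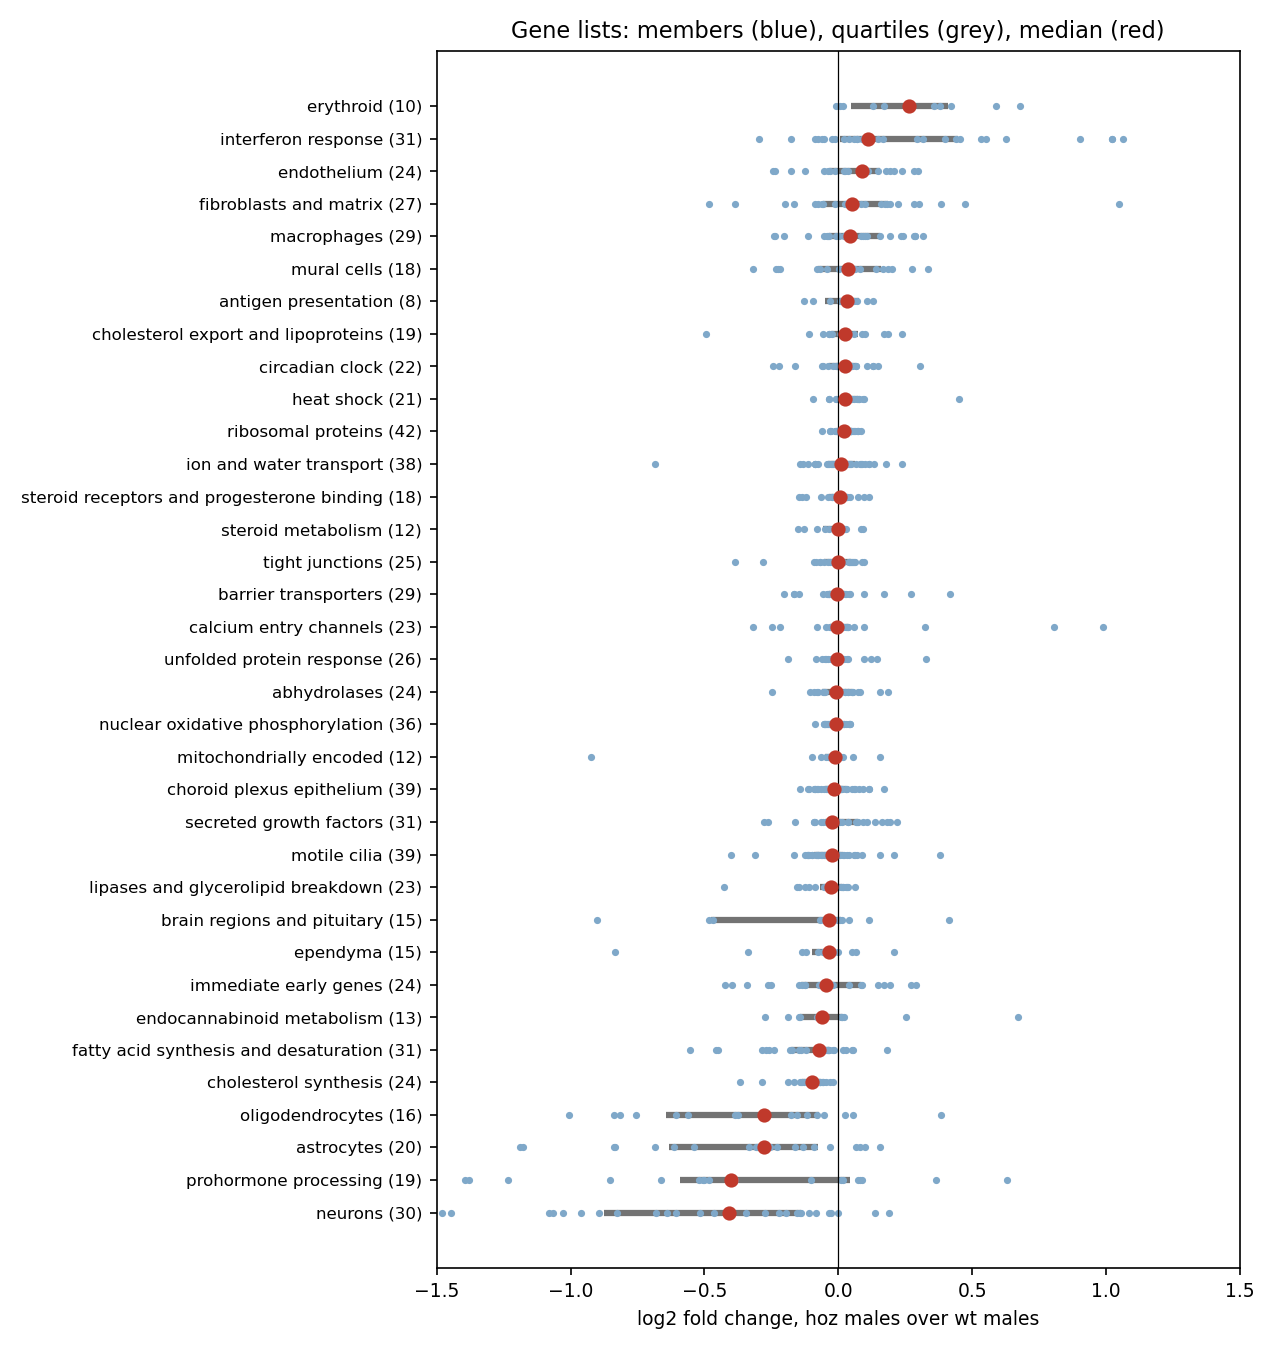
Log2 fold changes, hoz males over wt males, of the tested members of 35 lists (blue points, number tested in brackets), with quartiles in grey and medians in red, ordered by median. Neurons and prohormone processing lie lowest at -0.41 and -0.40 and erythroid highest at 0.26; 4 points lie outside the axis of -1.5 to 1.5, Abhd2 among them.

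Most interferon response genes had a log2 fold change above 0: 0 of 31 were called, 23 were above 0 and the median was 0.11. At an unadjusted p under 0.05, 4 members were higher and 0 lower. Over all tested genes 1.02% were higher at that p by edgeR, and 51.3% were above 0. The list's mean log2 CPM, as a deviation from the mean of the male libraries, was -0.084, 0.20 and 0.19 in hoz males. In wt males it was -0.096, -0.28 and 0.077. Hoz male 1 lay below wt male 3, so the groups overlapped. Irf7, a master factor of the response, had 4.74, 4.68 and 5.23 CPM in hoz males and 3.56, 2.93 and 3.70 CPM in wt males. Ifit3, an antiviral effector, had 1.86, 2.90 and 5.72 CPM in hoz males and 1.73, 1.85 and 1.87 CPM in wt males. Hoz male 3 was the highest library for Ifit3, and hoz male 1 lay within the wt range. The erythroid list had 0 of 10 called, 9 above 0 and a median of 0.26, which was 0.08 without wt male 1 and 0.72 without wt male 2. Hba-a2, an alpha globin, had 5.50, 8.09 and 4.71 CPM in hoz males and 1.84, 5.49 and 3.93 CPM in wt males, and globin copies can share reads.

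Stress and housekeeping lists gave no call. Immediate early genes had 0 of 24 called and a median of -0.05, with Junb, a subunit of the AP-1 factor, at 2.46, 2.99 and 2.75 CPM in hoz males and 3.56, 3.40 and 3.58 CPM in wt males. The circadian clock had 0 of 22 called and a median of 0.03, and Per2, of the clock's negative arm, had a log2 fold change of 0.31, which was 0.12 without hoz male 3. The unfolded protein response had 0 of 26 called and a median of -0.01, and Dnajb9, a chaperone it induces, a log2 fold change of 0.12. Heat shock had 0 of 21 called with a median of 0.03, ribosomal proteins 0 of 42 with 0.02, nuclear oxidative phosphorylation 0 of 36 with -0.01, mitochondrially encoded genes 0 of 12 with -0.01 and secreted growth factors 0 of 31 with -0.02. Ependyma had 0 of 15 called and a median of -0.03, and brain region and pituitary genes 0 of 15 and -0.03. In these lists Fam216b, a ciliated cell gene, had 8.21, 7.75 and 7.44 CPM in hoz males and 9.74, 10.6 and 9.06 CPM in wt males, and Emx1, a forebrain homeobox gene, had 3.39, 2.81 and 3.60 CPM in hoz males and 4.34, 5.22 and 3.89 CPM in wt males.

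Genes near Abhd2, which are linked to its allele, were examined by distance. Within 1 Mb, 0 of 26 tested neighbours were called, 12 were above 0 and the median log2 fold change was -0.02. Within 5 Mb it was 0.00 over 67 genes and within 20 Mb 0.01 over 167, with 0 called in both. The nearest, Rlbp1, a retinoid carrier on the minus strand whose 3′ end lies 9.36 kb past the end of Abhd2 (chr7:79374871-79387027), had 14.9, 17.96 and 15.04 CPM in hoz males and 25.1, 28.6 and 18.6 CPM in wt males. Every hoz male was lower, at a log2 fold change of -0.58 (SE 0.254, adjusted p = 1.0 by edgeR). Without wt males 1 and 2 the log2 fold change of Rlbp1 was -0.21. In females it had 28.5, 26.9 and 55.6 CPM in hoz and 41.8, 41.4 and 50.9 CPM in wt, with overlap. Rccd1, a chromatin linked protein, was the other neighbour with an unadjusted p under 0.05, at 3.98, 3.41 and 3.20 CPM in hoz males and 2.45, 2.86 and 2.57 CPM in wt males. The remaining 24 neighbours had log2 fold changes of -0.24 to 0.16.

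**Figure D5:**
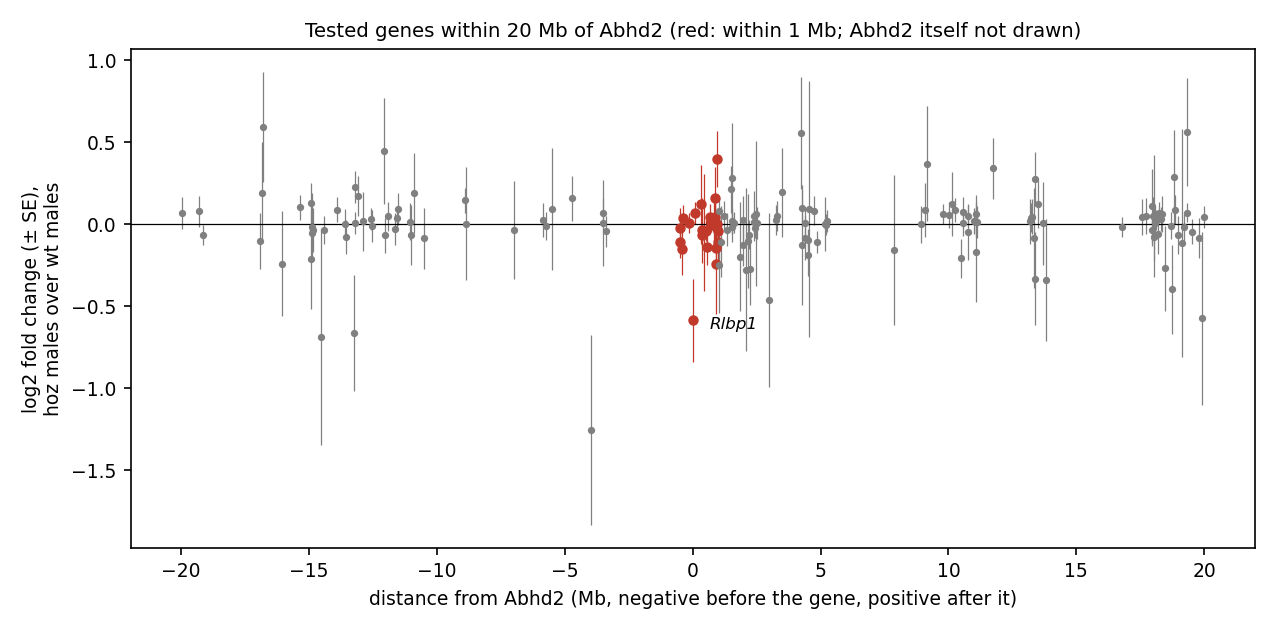
Log2 fold change, hoz males over wt males, with its SE, of the 167 tested genes within 20 Mb of Abhd2, against the distance from Abhd2 in Mb. The genes within 1 Mb are red and scatter about 0 (median -0.02), and Rlbp1 at -0.58 is the nearest.

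The authors' deposited table calls 3 of 22158 genes in this comparison (0.0135%): Abhd2, Ackr4 (adjusted p = 5.61e-06) and Pcsk2 (adjusted p = 1.22e-04). Log2 fold changes in the authors' deposited table are smaller than the ratios of the group means it lists beside them. For Abhd2 it gives -3.02, where its means of 1389.7 in hoz males and 54249.7 in wt males, in the authors' normalized units, give -5.29. For Ackr4 it gives -0.35 with means whose ratio is -1.13, and for Pcsk2 -0.33 against -0.52. The largest positive value in the authors' deposited table is 0.21, that of Lrrc38, whose means give 0.47.

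The genotype difference was tested against that of the females, hoz females over wt females, with an interaction term. It called 1 of 13857 genes (0.00722%), Ddx17, an RNA helicase, named here after its values were seen because it is the only call. Ddx17 had 226, 221 and 236 CPM in hoz males and 213, 204 and 221 CPM in wt males, with overlap. In females it had 152, 153 and 156 CPM in hoz and 200, 215 and 209 CPM in wt. The female difference minus the male one was -0.54 (SE 0.0783, adjusted p = 0.0490 by edgeR's quasi-likelihood test). The call was kept by DESeq2 and without wt male 3, and was lost with limma voom (adjusted p = 0.0517) and when any other single library was left out. Abhd2 itself had an interaction of -0.18 (SE 0.122, adjusted p = 1.0). Scd1 had 165, 183 and 171 CPM in hoz females and 280, 278 and 271 CPM in wt females, a log2 fold change of -0.68 beside -0.55 in males, and an interaction of -0.12 (adjusted p = 1.0). Pcsk2 had -0.24 in females and an interaction of 0.28, and Ackr4 -0.53 in females and an interaction of 0.67, both with an adjusted p of 1.0.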

How the data were processed

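Raw read counts per gene, deposited by the authors with mm10 as the build per the submitters' processing notes, were the measure tested. Those notes list edgeR 3.16.5, HTSeq 0.6.1, STAR 2.5, STAR-Fusion, TopHat, CASAVA and DESeq2 without tying a tool to a step, and do not say if counting used the strand. FPKM values deposited by the authors were used for levels between genes, and per the values they are scaled to the deposited gene length and the library's summed reads. The authors' deposited table also holds normalized signal means per group, log2 fold changes, and p-values, for which the sources used here name no method of adjustment.

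Of 35275 genes, 13857 passed edgeR's filterByExpr by group. Libraries were scaled by TMM (edgeR 4.0.16, limma 3.58.1, DESeq2 1.42.0, R 4.3.3), and CPM use the scaled total. The 4 group means were fitted over all 12 libraries with edgeR's robust quasi-likelihood test (8 residual degrees of freedom), two-sided, with Benjamini-Hochberg adjustment and a threshold of 0.05. The script was tested on simulated data. Depth was 11842276 to 47903184 reads in males, where 3 reads stand at 0.0640 to 0.254 CPM. The common biological coefficient of variation was 0.0870. Replicates are numbered in listed order and pair nothing.

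The genes compared and the 37 gene lists were chosen with earlier results of these data known. Named were Abhd2, called genes, the 12 lower and 12 higher with the smallest p among genes of at least 5 CPM whose male groups do not overlap (predicted and clone symbols left out), the authors' calls, genes within 1 Mb of Abhd2 and up to 4 members per list with the smallest p. Markers and sex-linked genes are given as levels. Other names were chosen after their values were seen. Alternatives were DESeq2, voom with and without sample weights, DESeq2 size factors, other filters, no robust estimation, the neuron score as covariate, the males alone, each library left out and, chosen after seeing the data, wt males 1 and 2 left out. Some items are not reported here.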

Additional observations from a re-analysis of the deposited data

Results flagged for a closer look

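Ddx17 was singled out because its genotype difference depends on sex by the interaction test: the interaction log2 difference of Ddx17, female minus male, was -0.54 (Benjamini-Hochberg adjusted p = 0.0490, edgeR's quasi-likelihood test). All 3 hoz females lay below all 3 wt females, at 152 to 156 CPM against 200 to 215 CPM. The males overlapped, at 221 to 236 CPM in hoz and 204 to 221 CPM in wt. Over the alternatives the adjusted p ran from 1.13e-07 with DESeq2 to 0.528 without wt males 1 and 2.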

How the results depend on the processing

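Abhd2 was called lower in hoz males under all 22 alternatives, at log2 fold changes of -5.46 to -5.17. The number of genes called in hoz males against wt males was 1, but 4 with DESeq2, 3 with voom and sample weights, 2 with no filter on low counts and 3 without wt males 1 and 2. With 1 male library left out it ran from 1 to 8, with 2 without wt male 2 (Abhd2 and Insig1) and 8 without wt male 3, and with 1 female library left out it stayed at 1. The interaction called 1 gene, but 3 with DESeq2, 2 with no filter, and 0 with voom, with DESeq2 size factors, with no robust estimation and without wt males 1 and 2. It called 0 to 7 with 1 library left out, with 7 without wt male 3. With the neuron score as covariate it called Hspb1 in place of Ddx17. All 71 genes followed through the alternatives kept their direction, and 65 were called in none. Pcsk2 was called by DESeq2 and with no filter, Scd1 by DESeq2 and without wt males 1 and 2, Ackr4 by DESeq2 and by voom with sample weights, Insig1 as given in the report and Eno2 without wt male 3. Log2 fold changes over the alternatives ran from -0.55 to -0.17 for Tmod2, -0.58 to -0.27 for Celf4 and -0.51 to -0.12 for Phlda3. Medians of the lists and of the distance windows around Abhd2 moved by more than the spread between libraries in 22 cases and by less in 836. The median over all genes stayed at 0.00 to 0.01. Where wt male 3 is alone it is assumed to vary like the other groups. The causes of these moves were not tested. No paired analysis was possible because the labels number no replicates.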

Other observations

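Cell type markers not described above were present in every male library. Kdr, the VEGF receptor of endothelium, had 35.2, 57.8 and 41.3 CPM in hoz males and 40.6, 31.1 and 62.2 CPM in wt males. Rgs5 of pericytes had 47.2, 92.7 and 58.1 CPM in hoz males and 63.2, 39.5 and 72.9 CPM in wt males. Both were highest in hoz male 2 among hoz males and in wt male 3 among wt males. Csf1r of macrophages had 19.6, 22.7 and 16.9 CPM in hoz males and 15.42, 17.9 and 22.3 CPM in wt males, and the groups overlapped. Acot1, a cytosolic thioesterase chosen after its values were seen, had 32.3, 32.4 and 29.8 CPM in hoz males and 48.5, 53.1 and 36.5 CPM in wt males. In females it had 27.3, 21.2 and 17.1 CPM in hoz and 29.2, 27.1 and 43.6 CPM in wt, with overlap.

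Nnt, a mitochondrial transhydrogenase which carries a deletion in C57BL/6J mice, had 136 to 158 CPM in hoz males and 142 to 155 CPM in wt males. The Y-linked Ddx3y, Eif2s3y, Kdm5d and Uty had 0 reads in all 6 females. In males Ddx3y had 187, 149 and 173 CPM in hoz and 176, 200 and 143 CPM in wt.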
